A study of Mus musculus with 22 samples.

Results

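Surface proteins are used to sort pluripotent cells and to tell naive, primed and stromal cells apart, and the transcripts of 9 such molecules were followed here through the reversion of mouse epiblast stem cells. The 9 genes, Pecam1, Icam1, Cd24a, Cd44, Thy1, Itga6, Kit, Alpl and Gja1, were found by their symbols among 34489 genes in 22 libraries of bulk RNA sequencing. They were chosen by their known use as markers and by their levels in the naive, primed, reverted and feeder-culture libraries of this same series. Their differences between those states are therefore given as a description without a test, and so are those between passages, while tests on them are kept for day of culture and AICAR.

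Naive cells correspond to the epiblast before implantation and primed cells to the epiblast after it. Both express Oct4, but they grow under different signals, LIF with inhibition of MEK and GSK3 for naive cells and FGF2 with Activin A for primed cells, and they carry different adhesion and junction proteins. PECAM1, ICAM1, KIT and alkaline phosphatase are common markers of naive mouse cells, while CD44 and THY1 are found on fibroblasts and other stromal cells. Integrin alpha 6 and CD24 occur on many epithelial and stem cells, and connexin 43, the product of Gja1, joins many cell types through gap junctions.

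The naive library came from Rex1-GFP mouse embryonic stem cells (mESCs), a reporter line kept in 2iL (LIF with the MEK inhibitor PD0325901 and the GSK3 inhibitor CHIR99021). The primed group held 1 library each of the mouse epiblast stem cell (mEpiSC) lines Oct4GIP, of strain 129/Ola with an Oct4-driven eGFPiresPuro transgene, and 129/MSM, derived from a cross of MSM/Ms and 129X1/SvJ mice. Both lines were kept in FGF2 and Activin A, per the study's methods Oct4GIP on fibronectin and 129/MSM on mouse embryonic fibroblast (MEF) feeders. For reversion the cells were placed on MEF feeders in Basal medium for 16 days with an activator of the kinase AMPK, and then expanded in 2iL on gelatin. The activators were AICAR, A769662 and metformin, the first of which enters the cell and is turned into an analogue of AMP.

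Cultures before expansion were sampled at day 8 (d8) and day 16 (d16), each in basal medium, 2iL, AICAR and AICAR+LIF, all from Oct4GIP. These 8 libraries are whole cultures, from which reads of feeder cells were not separated. Reverted cells after 2 or 3 passages (d16+2p and d16+3p, 4 libraries) were Oct4GIP cells that had received AICAR or AICAR+LIF. Reverted cells after 10 passages (d16+10p, 7 libraries) were of both lines, the Oct4GIP cells having received A769662 or AICAR with or without LIF, or metformin with LIF, and the 129/MSM cells AICAR with or without LIF. Each library was a condition of its own, so the spread within a group covers different treatments and cell lines, and p-values measure only the spread between these libraries. In bulk RNA, fewer cells of a type and less RNA per cell cannot be told apart.

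Total counts were lowest in the AICAR cultures of d8, at 956357 without LIF and 438771 with it, and lay between 1689495 and 5290163 in the others. Levels are CPM, counts scaled to a library total of 1000000 after TMM adjustment of the totals, and 3 counts, the upper limit that a count of 0 allows, equal 0.566 CPM in the deepest library and 5.93 CPM in the shallowest. The summed CPM of 6 naive markers was 3293 in the naive library, 2119 to 3859 in the 11 reverted libraries, 17.7 and 27.8 in the primed libraries and 13.7 to 78.6 in the cultures. The pluripotency markers Utf1 and Dppa4 were at 0 in all 8 cultures, and Dppa4 was at 0 in both primed libraries as well. In the cultures the 5-gene pluripotency list summed to 133 to 316 CPM. It summed to 1554 to 2300 CPM in reverted cells, 1330 CPM in primed Oct4GIP and 681 CPM in primed 129/MSM. Feeder and fibroblast markers (12 genes) summed to 5710 to 7483 CPM at d8 and 8170 to 55465 CPM at d16. They summed to 1782 to 3286 CPM in reverted cells, 479 CPM in primed Oct4GIP and 2188 CPM in primed 129/MSM. Gene by gene the order of reverted and primed cells differed from that of the sums. At d16+10p 9 of the 12 were called lower and 1 higher than in primed cells (median log2 difference -5.31, edgeR). The naive library summed to 2091 CPM with 5 of the 12 at 0. The cultures, labelled as epiblast, thus had higher sums of fibroblast markers and lower sums of pluripotency markers than every reverted library.

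**Figure D1:**
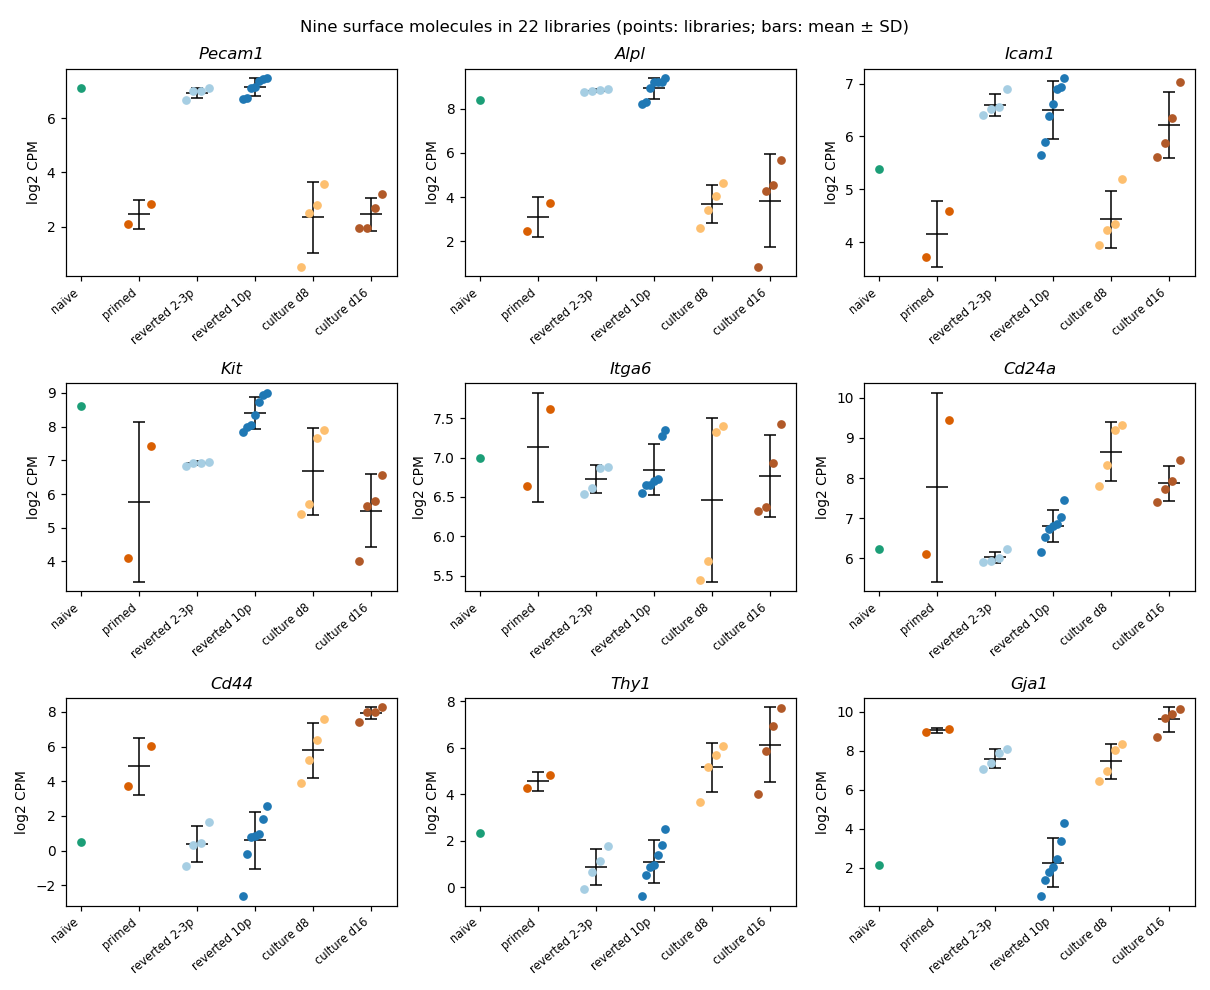
Level of each of the 9 genes in every library (log2 CPM with a prior count of 0.5), with 1 point for each library, bars for the mean and SD of a group and the 6 groups along the horizontal axis. Pecam1 and Alpl stood high in the naive and reverted libraries, Cd44 and Thy1 in the cultures, and Gja1 in the primed libraries, the d16+2p and d16+3p libraries and the cultures.

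Sequences bear on how these counts can be read, and a single transcript held most counts at the low end of the Pecam1 scale. Pecam1 lies on the minus strand of chromosome 11 (106654217 to 106750628, GRCm38). A single-exon transcript of 2142 bases annotated as a retained intron (106661185 to 106663326) took nearly all Pecam1 counts in primed cells and cultures. The stretch shown is given because its capitals mark 127 bases that align at 95% identity or more, over at least 79 bases, with transcripts of 114 other genes. None of its 187 bases lies in an exon of another Pecam1 transcript, but 228 of the 2142 bases of the whole transcript do. How reads in those bases were divided was not tested. The stretch shown is chr11:106662950-106663136 on the minus strand of GRCm38, written 5′ to 3′.
Pecam1 retained-intron transcript: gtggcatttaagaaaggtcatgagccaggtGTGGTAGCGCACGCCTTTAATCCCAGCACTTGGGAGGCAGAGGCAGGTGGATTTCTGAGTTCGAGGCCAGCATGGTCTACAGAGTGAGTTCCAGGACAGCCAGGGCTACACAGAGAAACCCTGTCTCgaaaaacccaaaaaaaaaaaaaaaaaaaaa
Whether reads of those other genes were counted as this transcript was not tested.

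Promoters are shown for 3 genes whose levels separate the states, from the RefSeq promoter table for GRCm38.p6, in which 5 of the 9 genes were found. Each is the 250 bases before an annotated start, 5′ to 3′ on the strand of the gene. Icam1 is at chr9:21015690-21015939 (plus strand), Gja1 at chr10:56377050-56377299 (plus strand) and the upstream start of Alpl at chr4:137796385-137796634 (minus strand). This upstream start is that of Alpl-201, which held 73.6% to 85.3% of Alpl counts in the groups. Capitals mark matches, on either strand, to TTCNNNGAA (STAT), TGANTCA (AP-1), GGAANTTCC (NF-kB) and GGGCGG (GC box).
Icam1: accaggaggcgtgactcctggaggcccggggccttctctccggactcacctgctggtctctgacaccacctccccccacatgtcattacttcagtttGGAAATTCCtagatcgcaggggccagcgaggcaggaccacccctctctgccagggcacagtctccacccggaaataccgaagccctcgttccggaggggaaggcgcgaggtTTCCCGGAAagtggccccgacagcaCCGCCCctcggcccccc
Gja1: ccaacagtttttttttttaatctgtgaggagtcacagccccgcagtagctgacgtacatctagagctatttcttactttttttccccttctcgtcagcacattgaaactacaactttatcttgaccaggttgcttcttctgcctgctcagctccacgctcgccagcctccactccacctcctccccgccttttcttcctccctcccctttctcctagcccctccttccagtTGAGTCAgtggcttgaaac
Alpl upstream start: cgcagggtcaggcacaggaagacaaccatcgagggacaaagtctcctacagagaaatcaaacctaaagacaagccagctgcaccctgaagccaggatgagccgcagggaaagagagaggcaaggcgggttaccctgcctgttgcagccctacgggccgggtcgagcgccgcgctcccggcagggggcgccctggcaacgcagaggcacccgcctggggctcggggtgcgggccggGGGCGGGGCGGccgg
The Icam1 promoter held an NF-kB match 153 to 145 bases before the start, a STAT match 42 to 34 bases before it and a GC box, whose letters occurred in 0.813%, 7.02% and 32.7% of the 32851 promoters of the same length. The Gja1 promoter held an AP-1 match 19 to 13 bases before the start, a motif found in 6.75% of promoters, which overlaps a match to the E-box CANNTG (66.2% of promoters). The Alpl window held a pair of overlapping GC boxes and an E-box match that is not in capitals, as were 2 E-box matches in Icam1. No match to TATAAA (12.4% of promoters) or CTTTGA (13.8%) was found in these 3 windows. A match is a run of letters only, and binding was not measured here.

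Pecam1 encodes an adhesion molecule of the immunoglobulin family that is best known from endothelium and is a sorting marker of naive mouse cells. It was counted at 138 CPM in the naive library, 4.05 CPM in primed Oct4GIP and 6.95 CPM in primed 129/MSM. Reverted cells had 128 CPM (AICAR d16+2p), 127 CPM (AICAR+LIF d16+2p), 103 CPM (AICAR d16+3p) and 139 CPM (AICAR+LIF d16+3p), and at d16+10p they had 104 to 180 CPM with a median of 144 CPM. The cultures stayed at 0.947 to 11.6 CPM (median 5.68). All 11 reverted libraries were thus above all primed and culture libraries and around the naive one, with a mean at d16+10p of 145 ± 31.0 CPM (SD, n = 7), 26.4 times the primed mean of 5.50 ± 2.05 CPM (n = 2). Within d16+10p the 129/MSM libraries (104 and 108 CPM) lay below the Oct4GIP libraries (138 to 180 CPM).

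Taking the retained-intron transcript apart from the other Pecam1 transcripts changed the size of this difference. It stood at 5.59 CPM in the naive library, 3.68 and 6.95 CPM in primed cells, 2.74 to 13.9 CPM in reverted cells and 0.947 to 10.4 CPM in cultures, so its ranges overlapped in all states. It made up 4.04% of the Pecam1 counts of the naive library (Wilson 95% interval 2.57% to 6.29%), 7.66% at d16+2p and d16+3p, 4.54% at d16+10p, 97.0% in primed cells and 89.7% in the cultures, the group values being pooled over libraries. The other transcripts had 1 and 0 counts in the primed libraries, 0 to 3 counts in each culture and 241 to 587 counts in each reverted library. On these transcripts the d16+10p level was 826 times the primed level, with a counting interval of 148 to 32640 since the primed group held 1 count. Against the cultures (13 counts in all) it was 220 times as high, with a counting interval of 129 to 414. These intervals cover counting error only. The fitted log2 difference of d16+10p from primed was 4.70 with this transcript and 9.33 without it.

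**Figure D2:**
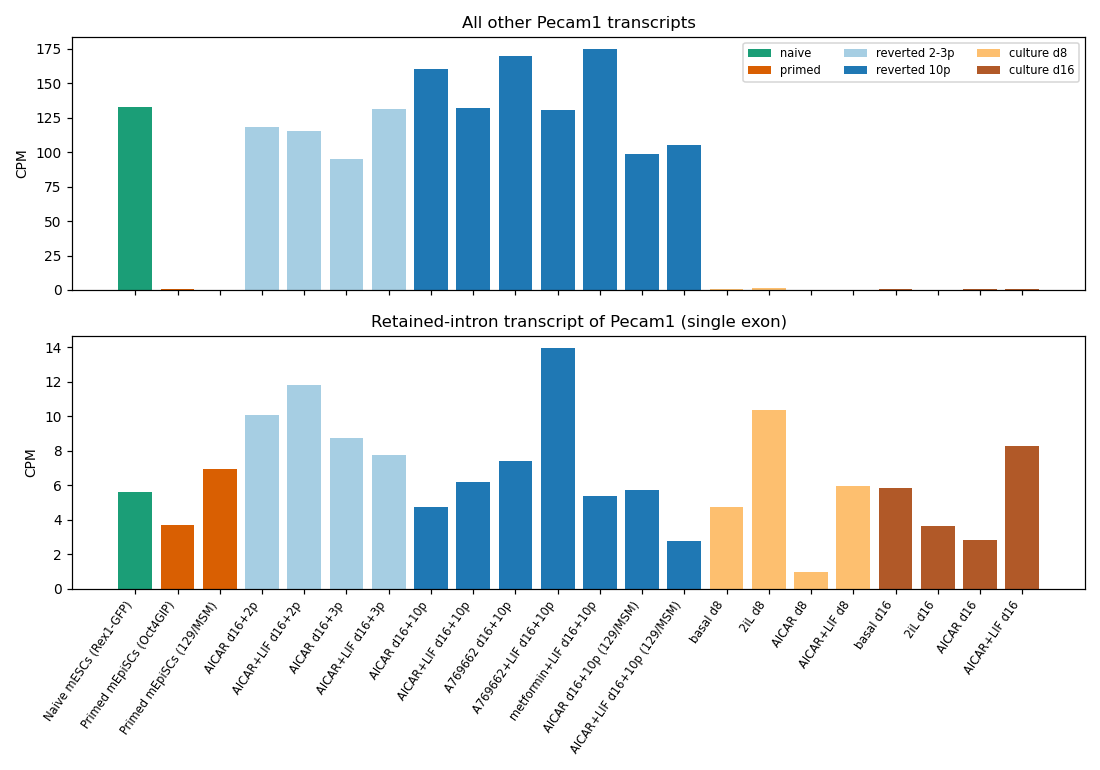
Level (CPM) of the retained-intron transcript and of all other Pecam1 transcripts in each library, as bars in separate panels with their own scales and colours for the groups. The retained-intron transcript lay between 0.947 and 13.9 CPM in every group, while the other transcripts lay between 94.7 and 175 CPM in reverted cells and at or below 1.24 CPM in primed cells and cultures.

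Endothelium and blood cells also express Pecam1. The summed CPM of 8 endothelial markers was 50.3 in the naive library, 36.6 to 48.9 in primed cells, 33.7 to 103 in reverted cells and 19.9 to 290 in cultures. Of these 8, Cdh5 was at 0 in all d16+10p libraries and in the naive library, and the other 7 were counted in at least 1 library of d16+10p. Blood markers (6 genes) summed to 165 CPM in the naive library and to 10.7 and 55.3 CPM in primed cells. They summed to 56.3 to 225 CPM in reverted cells and 4.81 to 35.6 CPM in cultures. This sum moved with Pecam1, but the list as a whole did not. Of the 5 tested, 1 was called higher and 0 lower at d16+10p than in primed cells (median log2 difference -1.32, edgeR). In cultures 2 of the 5 were called higher than at d16+10p and 1 lower. Of the 6 blood markers, Tyrobp was at 0 in all d16+10p libraries and the other 5 were counted in at least 1 of them. The part of such cells in the Pecam1 level was not tested.

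Icam1 encodes an immunoglobulin-family ligand of leukocyte integrins. Its level was 41.6 CPM in the naive library, 23.9 CPM in primed Oct4GIP and 12.95 CPM in primed 129/MSM. It reached 85.0 CPM (AICAR d16+2p), 93.9 CPM (AICAR+LIF d16+2p), 92.2 CPM (AICAR d16+3p) and 119 CPM (AICAR+LIF d16+3p), and 50.2 to 138 CPM (median 98.0) at d16+10p. The naive library was therefore below every reverted library, the single case among the 9 genes in which it fell outside the d16+10p range. At d16+10p the lowest values were those of 129/MSM (50.2 and 59.2 CPM, against 83.5 to 138 CPM in Oct4GIP). The d16+10p mean of 95.9 ± 33.2 CPM (SD, n = 7) was 5.20 times the primed mean. Icam1-202, a retained-intron transcript with 7.79% to 12.7% of Icam1 counts in the groups, aligns in part with transcripts of 59 other genes, so a small share of Icam1 is uncertain.

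Itga6, the laminin-binding integrin alpha 6, had overlapping ranges in primed, reverted and culture libraries. It was at 127 CPM in the naive library and at 197 CPM (Oct4GIP) and 99.8 CPM (129/MSM) in primed cells. Reverted cells ranged from 92.9 to 163 CPM with a median of 104 CPM, and cultures from 43.4 to 173 CPM with a median of 102 CPM. The naive library lay above all d16+2p and d16+3p libraries, which reached 118 CPM, and within the ranges of the primed, d16+10p and culture libraries.

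Cd24a encodes a small glycosylated surface protein anchored to the membrane by lipid. Primed Oct4GIP, at 68.8 CPM, was close to the naive library at 74.8 CPM, whereas primed 129/MSM was at 695 CPM. Reverted cells had 61.0, 59.7, 63.9 and 74.8 CPM in AICAR d16+2p, AICAR+LIF d16+2p, AICAR d16+3p and AICAR+LIF d16+3p, and 71.5 to 174 CPM (median 112) at d16+10p. The primed group thus spanned the reverted range, and the log2 difference of d16+10p from primed, -1.74 over both lines, was 0.73 without primed 129/MSM. The cultures were above most reverted libraries, with 644 CPM (basal), 583 CPM (2iL), 321 CPM (AICAR) and 221 CPM (AICAR+LIF) at d8 and 170, 350, 211 and 242 CPM in the same order at d16. Only basal d16 overlapped the d16+10p range.

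Cd44, the hyaluronan receptor, was at 12.9 CPM in primed Oct4GIP and 65.7 CPM in primed 129/MSM. In the naive library it was at 1.24 CPM, and in the 11 reverted libraries it ranged from 0 to 5.72 CPM with a median of 1.51 CPM. AICAR+LIF d16+10p had no count, which allows up to 0.973 CPM. Cultures had 37.6 CPM (basal), 14.9 CPM (2iL), 83.3 CPM (AICAR) and 190 CPM (AICAR+LIF) at d8, and 251, 254, 172 and 309 CPM in the same order at d16. Both primed cells and cultures were above all naive and reverted libraries. The culture mean of 164 ± 108 CPM (SD, n = 8) was 78.8 times the d16+10p mean of 2.08 ± 1.92 CPM.

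Thy1 encodes the lipid-anchored antigen THY1, a marker of fibroblasts, neurons and T cells. It was at 4.97 CPM in the naive library, 19.1 CPM in primed Oct4GIP, 28.4 CPM in primed 129/MSM and 0.616 to 5.49 CPM (median 1.79) in reverted cells. Cultures had 36.2 CPM (basal), 12.4 CPM (2iL), 51.1 CPM (AICAR) and 67.2 CPM (AICAR+LIF) at d8, and 124, 209, 15.9 and 58.7 CPM in the same order at d16. As for Cd44, no naive or reverted library reached the lowest primed or culture library. Beside the higher Cd44 and Thy1 of cultures, 11 of the 12 feeder and fibroblast markers given above were past the test for cultures against d16+10p. Among the d16 cultures the order differed. The marker sums were 8170, 55465, 23139 and 26496 CPM in basal, 2iL, AICAR and AICAR+LIF, whereas Cd44 and Thy1 were both lowest in AICAR d16. The part of feeder cells in the higher Cd44 and Thy1 was not tested.

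Kit, the receptor tyrosine kinase for stem cell factor, was at 390 CPM in the naive library, 16.9 CPM in primed Oct4GIP and 173 CPM in primed 129/MSM. It was at 122 CPM (AICAR d16+2p), 123 CPM (AICAR+LIF d16+2p), 122 CPM (AICAR d16+3p) and 113 CPM (AICAR+LIF d16+3p), and at d16+10p it ranged from 227 to 515 CPM with a median of 324 CPM. Libraries of d16+2p and d16+3p thus lay between the primed ones and below all of d16+10p. The log2 difference of d16+10p from primed was 1.90 over both lines, 4.39 without primed 129/MSM and 1.04 without primed Oct4GIP. Cultures had 238 CPM (basal), 202 CPM (2iL), 52.1 CPM (AICAR) and 41.5 CPM (AICAR+LIF) at d8 and 55.8, 16.0, 94.9 and 49.7 CPM in the same order at d16.

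Alpl, tissue-nonspecific alkaline phosphatase, is the enzyme behind the alkaline phosphatase stain of pluripotent colonies. It was at 332 CPM in the naive library, 13.2 CPM in primed Oct4GIP and 5.37 CPM in primed 129/MSM. Reverted cells had 468 CPM (AICAR d16+2p), 458 CPM (AICAR+LIF d16+2p), 441 CPM (AICAR d16+3p) and 429 CPM (AICAR+LIF d16+3p), and 299 to 658 CPM (median 584) at d16+10p. The 129/MSM libraries were again the lowest at d16+10p, at 299 and 316 CPM, and the lowest Oct4GIP library was at 489.5 CPM. The d16+10p mean of 504 ± 143 CPM (SD, n = 7) was 54.1 times the primed mean of 9.31 ± 5.57 CPM (n = 2), and the cultures stayed at 1.60 to 51.2 CPM. Markers of bone-forming cells, which also use Alpl, summed to 204 to 551 CPM in reverted cells, 12.0 to 530 CPM in cultures, 424 CPM in the naive library, 3.68 CPM in primed Oct4GIP and 637 CPM in primed 129/MSM. Of these 6, Bglap and Ibsp were at 0 in all reverted, naive and primed libraries, and the other 4 were counted in reverted cells. Their part in the Alpl level was not tested.

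Gja1, which encodes the gap-junction protein connexin 43, had the reverse order. It was at 4.34 CPM in the naive library and at 560 CPM (Oct4GIP) and 497 CPM (129/MSM) in primed cells. It was still at 271 CPM (AICAR d16+2p), 239 CPM (AICAR+LIF d16+2p), 134 CPM (AICAR d16+3p) and 163 CPM (AICAR+LIF d16+3p), and at d16+10p it was at 1.18 to 19.7 CPM with a median of 3.92 CPM. The d16+2p and d16+3p libraries formed a level of their own, below both primed libraries and above all of d16+10p. The primed mean of 528 ± 44.6 CPM (n = 2) was 80.5 times the d16+10p mean of 6.56 ± 6.46 CPM (SD, n = 7). Cultures were high as well, with 87.2 CPM (basal), 126 CPM (2iL), 267 CPM (AICAR) and 320 CPM (AICAR+LIF) at d8 and 821, 1118, 961 and 417 CPM in the same order at d16.

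Across these states, 7 of the 9 genes had d16+10p ranges that did not overlap the primed range, Cd24a and Itga6 being the exceptions. Over all genes, 36.6% of the 18739 tested were called between d16+10p and primed cells. For cultures against d16+10p, 5 of the 9 (Pecam1, Cd44, Thy1, Alpl and Gja1) did not overlap, beside 72.7% of all genes called. Nothing is read from these shares, because the genes were chosen on these same levels. The measures also differ, since the shares over all genes are edgeR calls. The share of all genes without overlap of ranges was not computed.

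Per kilobase of exon, median levels ranked the genes differently from state to state. At d16+10p Alpl led with 145 CPM per kilobase, followed by Cd24a (43.5), Kit (36.4), Pecam1 (23.2), Icam1 (22.5) and Itga6 (11.5), while Thy1, Gja1 and Cd44 were under 1. The ranges of Pecam1 and Icam1 at d16+10p overlapped, and those of Cd24a and Kit did so as well. At d16 Cd24a (87.8) and Gja1 (86.9) led, followed by Cd44 (37.2) and Thy1 (30.5), and Alpl was at 5.30 CPM per kilobase. In the primed pair Cd24a (148) and Gja1 (51.5) led, the former with a large gap between the lines.

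Passage number asks how far surface transcripts still differed between early and late expansion in 2iL. Since the 9 genes were chosen partly on reverted libraries, and Gja1 with its level at d16+2p and d16+3p known, their values are a description here as well. Gja1 was at 202 ± 64.1 CPM (SD, n = 4) at d16+2p and d16+3p and at 6.56 ± 6.46 CPM (n = 7) at d16+10p, the earlier mean being 30.8 times the later one. Kit was at 120.0 ± 4.83 CPM and 357 ± 118 CPM, with a later mean 2.97 times the earlier one. These were the 2 of 9 genes whose ranges did not overlap. By another measure, the edgeR call, 9.35% of all 18739 genes tested passed for passage number. The share of all genes without overlap was not computed. Nothing is read from the 2 of 9 for the same reason as above.

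The other 7 genes overlapped between the passages. Cd24a was at 64.9 ± 6.88 CPM (n = 4) and 115 ± 32.0 CPM (n = 7), and only AICAR+LIF d16+3p reached into the d16+10p range. The mean of Pecam1 was 1.17 times as high at d16+10p as before, that of Itga6 1.10 times and that of Alpl 1.12 times, while for Icam1 the earlier mean was 1.02 times the later one. Cd44 and Thy1 were near the counting floor in all 11 libraries, at no more than 14 counts. At d16+2p and d16+3p the primed markers summed to 440 to 645 CPM, against 80.3 to 255 CPM at d16+10p and 400 and 1672 CPM in primed cells.

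**Figure D3:**
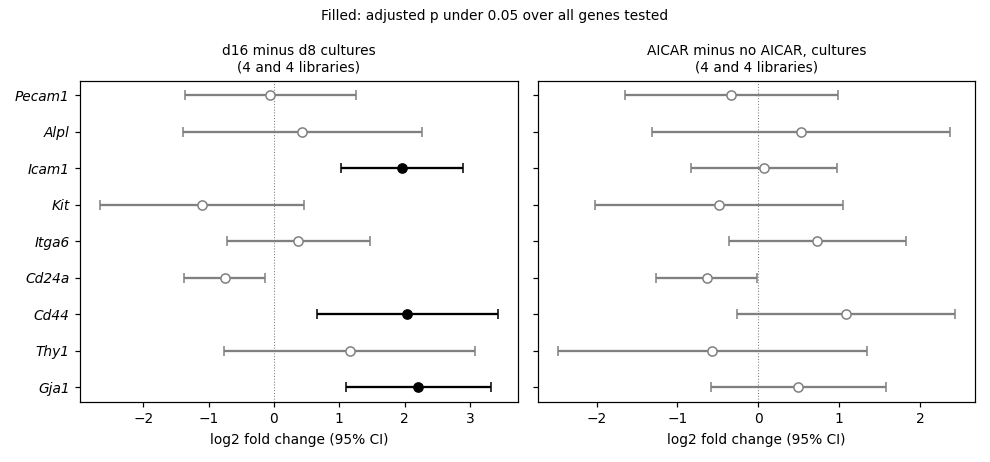
Fitted log2 difference with 95% interval of each of the 9 genes in the 8 cultures, for day (d16 minus d8) and AICAR (with minus without). Filled points passed an adjusted p of 0.05, namely Icam1, Cd44 and Gja1 for day and none for AICAR.

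The day of culture was compared over the 8 libraries with AICAR as a covariate. Icam1 rose from 15.2, 18.7, 19.9 and 35.6 CPM (basal, 2iL, AICAR and AICAR+LIF) at d8 to 48.9, 130, 58.4 and 81.7 CPM at d16, without overlap, by 1.96 on the log2 scale (SE 0.41, adjusted p = 0.00987, edgeR). Gja1 rose by 2.21 (SE 0.49, adjusted p = 0.0121, edgeR), and again all d16 libraries were above all d8 libraries. Cd44 rose by 2.04 (SE 0.61, adjusted p = 0.0347, edgeR), though AICAR+LIF d8 (190 CPM) was above AICAR d16 (172 CPM). The count of 3 of 9 genes stands beside 31.5% of all 14026 genes tested.

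The same contrast left Cd24a at -0.76 (adjusted p = 0.0646, edgeR), Thy1 at 1.16 (0.317), Kit at -1.10 (0.243), Alpl at 0.43 (0.713), Itga6 at 0.37 (0.586) and Pecam1 at -0.06 (0.953), all with overlapping ranges. Icam1 was called without any one of the 8 libraries (adjusted p 0.0054 to 0.0432, edgeR). Gja1 was not called without 2iL d8 (0.0549), and Cd44 was not called without basal d8 (0.118), 2iL d8 (0.0904), AICAR d8 (0.0791), basal d16 (0.0561) or AICAR+LIF d16 (0.0583). Without the shallowest libraries, AICAR d8 and AICAR+LIF d8, 6 of 9 genes were called. Those added were Thy1 at 2.86 (adjusted p = 0.0376, edgeR), Itga6 at 1.51 (0.0363) and Kit at -2.51 (0.0270). AICAR d8 and AICAR+LIF d8 are all the AICAR libraries of that day, so without them the day difference rests on basal and 2iL only. Feeder and fibroblast markers moved with the day: 8 of 11 tested rose and 0 fell, their sum was highest in 2iL d16 and lowest at d16 in basal d16, and none of them was at 0 throughout d16. Their part in the rise of the 3 genes was not tested.

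**Figure D4:**
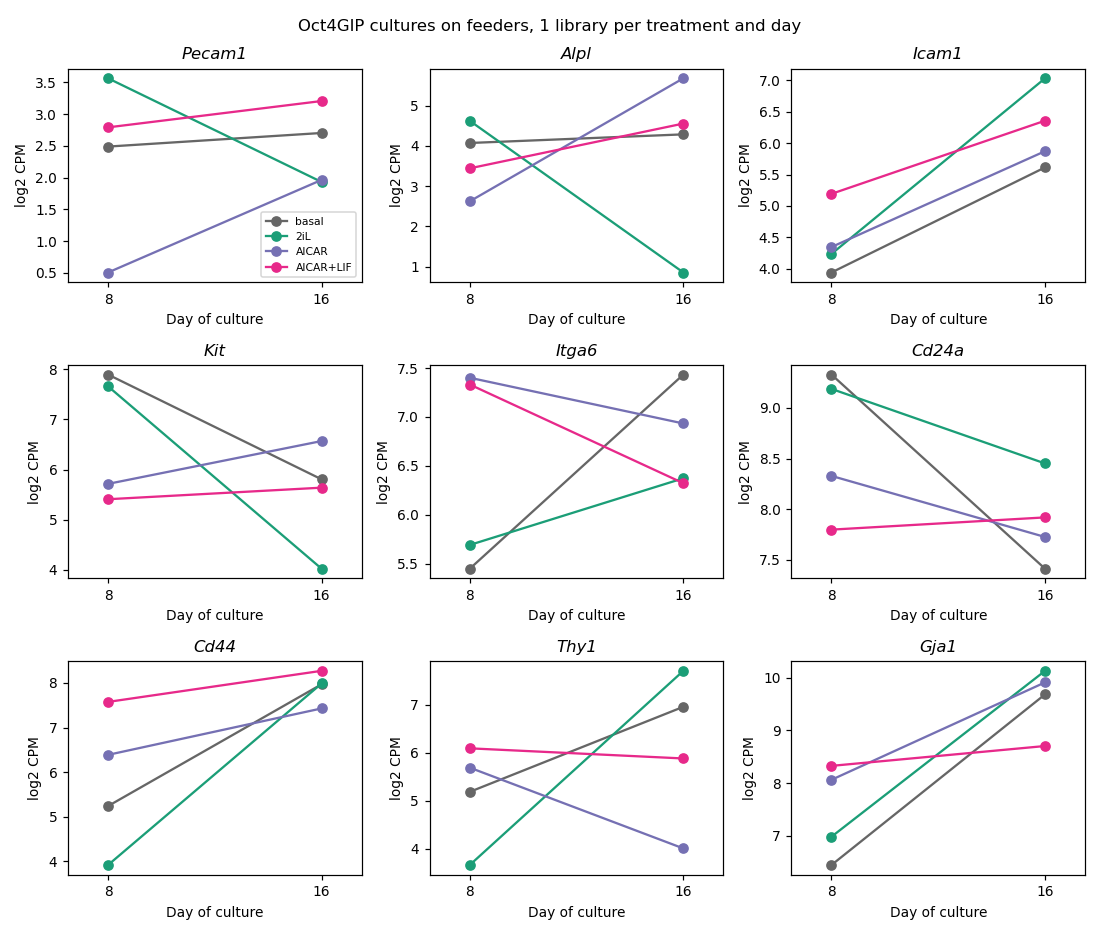
Levels of the 9 genes (log2 CPM) in the 4 treatments at d8 and d16, with lines joining the same treatment. For Icam1 and Gja1 every d16 library was above every d8 library. At d8 the libraries with and without AICAR did not overlap for any gene but Pecam1. At d16 they overlapped for all genes but Thy1 and Alpl, whose order was the reverse of that at d8.

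AICAR was compared with no AICAR in the same libraries, with the day as a covariate, to ask whether surface transcripts differed with AICAR before expansion. On each day the cultures without AICAR were basal and 2iL, of which 2iL holds the MEK and GSK3 inhibitors. The difference therefore mixes AICAR with the absence of these inhibitors. None of the 9 genes was called by edgeR (0 of 9, beside 9.54% of all genes), and 1, Cd24a, had an unadjusted p under 0.05. Cd24a had a log2 difference of -0.64 (95% interval -1.26 to -0.02, adjusted p = 0.163, edgeR). DESeq2 called 0 as well, with 2 at an unadjusted p under 0.05, and limma voom called 0, with 0 at that level. The intervals were wide, from -1.64 to 0.98 for Pecam1 and from -0.27 to 2.44 for Cd44, and a missed threshold does not show that levels were alike. Transcripts of Pecam1 other than the retained-intron one had 0 to 3 counts in every culture with AICAR.

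The AICAR difference was uneven between the days for several genes. At d8 the libraries with and without AICAR did not overlap for any gene but Pecam1. At d16 they overlapped for all genes but Thy1 and Alpl, whose order was the reverse of that at d8. The share of all genes without such overlap was not computed. Kit and Itga6 are given as examples. Kit at d8 was at 238 and 202 CPM without AICAR (basal and 2iL) and at 52.1 and 41.5 CPM with it (AICAR and AICAR+LIF). At d16 these values were 55.8 and 16.0 CPM without and 94.9 and 49.7 CPM with AICAR, which overlap. Itga6 at d8 was at 43.4 and 51.4 CPM without and 169 and 160 CPM with AICAR, and at d16 at 173 and 82.6 CPM without and 122 and 79.8 CPM with it. The interaction of AICAR and day passed for 0 of 9 genes by edgeR, 5 by DESeq2 and 0 by limma voom. Over all 14026 genes tested it passed for 38, 334 and 0 in the same order. By edgeR 6 of the 9 (Cd44, Thy1, Itga6, Kit, Alpl and Gja1) had an unadjusted p under 0.05, beside 2116 of all genes. The AICAR libraries at d8 are the 2 shallowest, so AICAR at d8 and low depth cannot be told apart.

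Other surface genes, in 7 lists by role with 92 genes in all, place the 9 genes among their kin. The lists were drawn up by role, with results of the series known. Their counts and medians are therefore a description, and nothing is read from how they differ from those of all genes. The adjusted p-values of single list genes give no separate support for the same reason. Between d16+10p and primed cells 11 of 86 tested rose and 32 fell, with a median log2 difference of -1.05 beside -0.01 over all genes, of which 16.7% were called higher and 19.9% lower. Of 15 integrin subunits 0 rose and 7 fell, and of 7 cadherins with Epcam 0 rose and 4 fell. Jam2, a junctional adhesion molecule, rose by 6.97 (SE 0.51) and the ectoenzyme Cd38 by 4.03 (SE 0.86). The size of the latter rests on 0 counts in primed Oct4GIP and 8 in primed 129/MSM, and it ranged from 3.13 to 8.94 without 1 library. Itga3 fell by 3.28 (SE 0.43), the complement regulator Cd59a by 3.25 (SE 0.46) and Epcam, an epithelial adhesion molecule, by 2.45 (SE 0.43). The adjusted p of these 5 genes was at most 0.000914 (edgeR). Over the Oct4GIP libraries alone 25 rather than 43 genes of the lists were called, and without primed 129/MSM 27.

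Between d16+10p and the earlier passages 6 of the 86 surface genes rose and 4 fell, beside 4.75% of all genes higher and 4.61% lower. Cd47, a ligand that restrains phagocytes, rose by 1.89 (SE 0.34, adjusted p = 0.00134, edgeR), the junctional molecule Jam3 by 1.57 (SE 0.30, 0.00262) and Sirpa, the receptor of CD47, by 1.47 (SE 0.31, 0.0051). The 4 that fell, named after their values were seen, were the integrin subunits Itga1 (-2.09) and Itga9 (-2.09), the ectonucleotidase Nt5e (-2.89) and the hyaluronan synthase Has2 (-3.17). Has2 was called in 3 of 16 alternatives, with an adjusted p of 0.0441 to 0.115 (edgeR) without any one library, and Itga1 was not called without AICAR+LIF d16+2p (0.0669). The lists' median was 0.04 beside -0.00 over all genes. Of the 9 other gap-junction genes tested 1 rose and 0 fell.

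Cultures differed most from d16+10p on these lists, with 54 of 86 genes higher and 21 lower and a median of 1.5 beside 0.04 over all genes, of which 72.7% were called, in nearly equal parts higher and lower (6941 and 6676 genes). Vcam1, an adhesion molecule of the family of Icam1, was higher by 7.98 (SE 0.46), the mesenchymal cadherin Cdh11 by 6.31 (SE 0.68) and the chemokine receptor Cxcr4 by 5.56 (SE 0.68). E-cadherin (Cdh1) fell by 5.45 (SE 0.72) and Tdgf1, a Nodal co-receptor, by 4.60 (SE 0.66). Each had an adjusted p of at most 2.87e-06 (edgeR). Among integrins 13 of 15 rose and 0 fell, and among stromal sort antigens 8 of 10 rose and 1 fell. Partners of the 9 genes, picked by role after their values were seen, included Itgb1, which pairs with integrin alpha 6 and was lower at d16+10p than in primed cells by a log2 difference of -1.83 (SE 0.36) and higher in cultures than at d16+10p by 2.12 (SE 0.27). Has2, which makes the ligand of CD44, had values of -6.40 (SE 0.89) and 6.53 (SE 0.78) in the same contrasts, and Kitl, the KIT ligand, of -1.15 (SE 0.75) and 2.64 (SE 0.54), all called by edgeR apart from Kitl against primed cells.

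**Figure D5:**
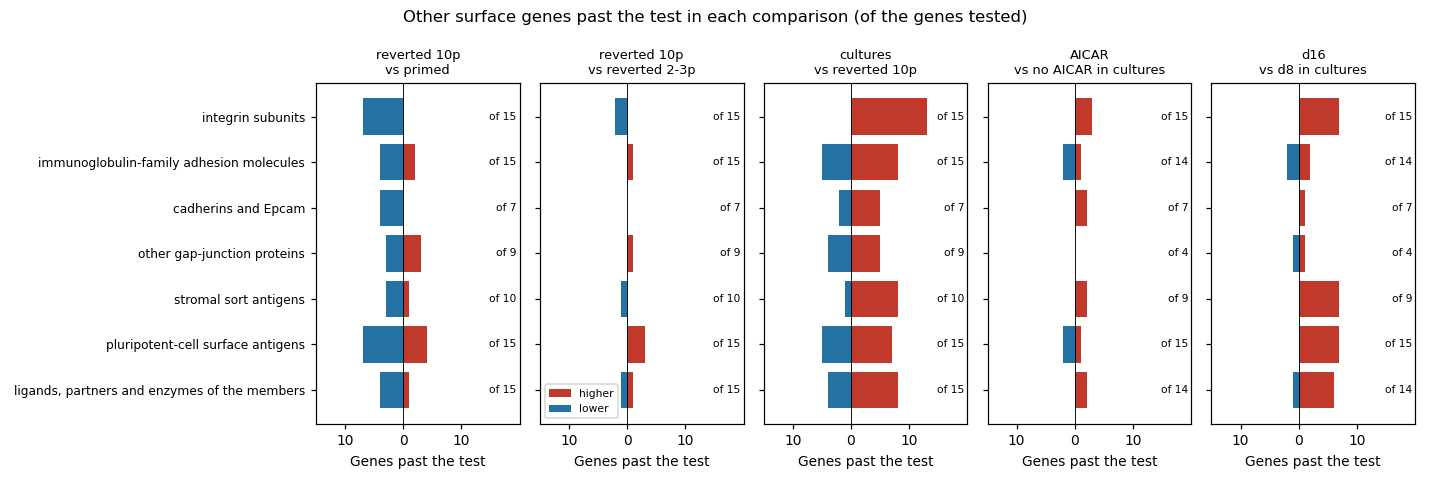
Number of genes called higher (to the right) and lower (to the left) in each of the 7 lists of other surface genes, for the 5 comparisons, with the number tested at the right. Integrins held 0 higher and 7 lower genes of 15 for d16+10p against primed cells, and 13 higher and 0 lower for cultures against d16+10p.

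Within cultures, d16 was above d8 for 31 of 78 surface genes and below it for 4, with a median of 0.62 beside -0.01, and over all genes 17.7% were above and 13.8% below. Stromal sort antigens rose in 7 of 9 cases and integrins in 7 of 15, with none falling in either list. The pyrophosphate-generating enzyme Enpp1, which acts against Alpl in mineral balance, rose by 4.59 (SE 0.48), Itga2 by 3.47 (SE 0.58) and the fibroblast protease Fap by 3.25 (SE 0.59). Cadm1 fell by 1.35 (SE 0.42), the hyaluronan receptor Hmmr by 1.03 (SE 0.27) and Nectin1 by 0.91 (SE 0.21), each with an adjusted p of at most 0.0389 (edgeR), and the fourth to fall, named after its value was seen, was the connexin Gjc1 (-0.85). Kitl rose by 2.68 (SE 0.36, adjusted p = 0.00239, edgeR). Without 2iL d8, 21 rather than 35 surface genes were called.

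With AICAR, 11 of 78 surface genes were higher and 4 lower, with a median of 0.54 beside -0.02, and over all genes 3.55% were higher and 5.99% lower. Nt5e rose by 2.29 (SE 0.46), the complement regulator Cd55 by 2.19 (SE 0.51) and Itga5, of the fibronectin receptor, by 1.83 (SE 0.48). The fucosyltransferase Fut9, which makes the SSEA-1 epitope, fell by 2.51 (SE 0.60), Prom1 by 1.48 (SE 0.35) and Ncam1 by 1.26 (SE 0.30), each with an adjusted p of at most 0.0478 (edgeR), and Nectin1, the fourth to fall, had -0.84. Cdh1, named after its values were seen, was at 65.3, 121, 22.5 and 10.2 CPM in AICAR d8, AICAR+LIF d8, AICAR d16 and AICAR+LIF d16, above basal d8, 2iL d8, basal d16 and 2iL d16 at 0.724, 0.829, 1.32 and 1.60 CPM (log2 difference 5.07, adjusted p = 0.00809, edgeR). Of the 3 pluripotency markers tested, 2 were also higher with AICAR (median of the 3 log2 differences 3.28). The sum of the 5-gene pluripotency list was not. It was 176, 227, 224 and 215 CPM in basal, 2iL, AICAR and AICAR+LIF at d8. At d16 it was 316, 170, 133 and 149 CPM in the same order. The part of these markers in the Cdh1 level was not tested. The 15 calls depended on single libraries. They numbered 3 without basal d8, 5 without 2iL d8, 1 without AICAR d8 and 5 without AICAR+LIF d8. The number was 32 without 2iL d16 and 6 without AICAR+LIF d16. Without AICAR d8 and AICAR+LIF d8 together it was 0, but that fit takes the AICAR difference from d16 alone.

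Across the 22 libraries the genes fell into sets that moved alike, as a description, since the libraries share states and depth. The Pearson correlation of log2 CPM was 0.95 between Pecam1 and Alpl and 0.88 between Cd44 and Thy1, and it was -0.93 between Thy1 and Alpl and -0.83 between Kit and Gja1. Among 10879 genes ranked by likeness, Pecam1 was followed most closely by Lncenc1 (r = 0.98) and the naive factor Esrrb (0.98), and Alpl by Esrrb (0.96) and Dnah8 (0.96). Cd44 had Arhgef17 (0.97) and Ifngr1 (0.96), Thy1 had Rhoc (0.95) and Rhou (0.94), and Gja1 had Slc39a14 (0.95) and Dusp3 (0.94). Icam1 was nearest to Ifitm1 (0.91) and Cln3 (0.90), Cd24a to Rai1 (0.92) and Gm16385 (0.89), and Kit to Relch (0.88) and Drg1 (0.88). Itga6 had the weakest likeness, to Pqlc3 (0.74) and Trim12c (0.72).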

How the data were processed

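Poly(A) RNA of 22 libraries was sequenced by the authors from a stranded library kit as single reads of 79 cycles, mapped with Bowtie2 2.2.5 to Ensembl GRCm38 cDNA and ncRNA sequences and filtered on mapping quality. The deposited table holds whole-number counts per gene, and a second deposited table holds counts per transcript. Whether strand was used in counting is not given in the sources used here. No sample column was left unused (0). Reads shared by similar transcripts, such as those of Cd24a with Gm6212 and Itga6 with Gm29397, can be split by such mapping.

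Libraries were grouped by their titles. The 9 genes and all lists were chosen with earlier results of these data known, so the 9 were tested for day and AICAR only. Counts were tested with edgeR 4.0.16 (TMM factors, filterByExpr, quasi-likelihood F test, Benjamini-Hochberg over all genes, threshold 0.05) under R 4.3.3. All 22 libraries in 6 groups served for passage number and for the states, and the 8 cultures for day and AICAR, each with the other as covariate. The naive library entered no contrast. CPM used TMM totals, and log2 CPM a prior count of 0.5. Standard errors are the absolute log2 difference divided by the square root of F. The study states no test for bulk RNA. From the lists, up to 3 genes in each direction were named per comparison, those with the largest called log2 difference with a mean log2 CPM not under 3, and for likeness the 2 genes of highest correlation. A gene that this rule names is not reported here. Alternatives were DESeq2 1.42.0, limma voom (limma 3.58.1), other filters and scaling, and subsets of libraries. Leaving out the shallow libraries and the Pecam1 retained-intron transcript was chosen after seeing the data. The shallow libraries are all the AICAR libraries of d8. Without them AICAR is compared at d16 only and day in cultures without AICAR only, so depth and contrast change together. The scripts were tested on simulated counts in which 200 genes were changed. At a log2 change of 1, 56 of them were recovered for passage number, 6 for AICAR and 7 for day. With a log2 change of 2 the numbers were 136, 168 and 180 in the same order. Similarity was searched with blastn 2.17.0 (at least 95% identity over 79 bases). Transcript positions were those of the GENCODE annotation of GRCm38. Of 6903 Itga6 counts, 5984 lay on transcripts in it.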

Additional observations from a re-analysis of the deposited data

Results flagged for a closer look

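Kit in AICAR+LIF d16+3p, at 113 CPM, lay apart from the other 3 libraries of d16+2p and d16+3p, which were at 122 to 123 CPM, the gap being 0.88 of the range of the group. It was the 1 such library among 36 combinations of gene and group examined, and chance alone marks about 1 in 20.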

How the results depend on the processing

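Pairing by replicate was not possible because the labels give no replicate numbers. Both cell lines occur among the primed and the late reverted libraries, and AICAR and AICAR+LIF occur at early and late passages. Blocking by line or treatment was therefore possible in those contrasts, but their fit by group held no such term. The day contrast was also fitted with treatments as blocks, since the same 4 treatments occur at d8 and d16. With all 4 treatments as blocks that contrast called 3423 genes against 4424, and 3 of the 9 genes (Icam1, Cd44 and Gja1) were called as before (edgeR).

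Counts over all genes moved as follows (the cause was not tested beyond the number of genes or libraries kept). With at least 10 counts in every library, 2878 (d16+10p against primed), 877 (passage number), 5654 (cultures), 789 (AICAR) and 2862 (day) genes were called, against 6862, 1753, 13617, 1338 and 4424. Passage number gave 3002 with the libraries of the 2 groups only. AICAR gave 2140 by DESeq2, 3143 with no filter, 37 with no term for the day, 753 with 4 treatments and 0 by edgeR (3010 at an unadjusted p under 0.05), 756 by DESeq2 and 0 by limma voom without the 2 shallow libraries. Leaving out 1 library each gave 4463 to 6765 (primed; lowest without Oct4GIP), 936 to 1847 (passage; lowest without AICAR d16+2p), 245 to 2660 (AICAR; lowest without AICAR d8, highest without 2iL d16) and 2411 to 4066 (day; lowest without 2iL d8). Without TMM factors the calls split into 2651 higher and 4114 lower (primed), 780 and 650 (AICAR) and 2060 and 2540 (day), against 3129 and 3733, 498 and 840, and 2486 and 1938, and the median log2 difference of all genes for day went from -0.01 to -0.13.

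Of the 9 genes, AICAR called 3 with no filter (Cd24a, Cd44 and Itga6) and 0 to 1 without a library (1 without basal d16). Day called 6 with no filter or without the shallow libraries and 1 to 4 without a library (1 without 2iL d8, 4 without AICAR+LIF d8).

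Direction turned in these cases, given as log2 differences. For d16+10p against primed, Cd24a was 0.85 with Oct4GIP only and -2.60 to 0.73 without 1 library. For AICAR, Icam1 was -0.025 with at least 10 counts, and Icam1 and Gja1 were -0.097 and -0.14 with no term for the day. Without the shallow libraries, which leaves AICAR compared at d16 only, Pecam1 was 0.28, Icam1 -0.38, Cd44 -0.094, Itga6 -0.36, Kit 0.97 and Gja1 -0.52. Without 1 library Pecam1 ranged from -0.92 to 0.11, Icam1 from -0.16 to 0.62, Thy1 from -1.22 to 0.24 and Alpl from -0.13 to 1.04. For day, Pecam1 was 0.011 by DESeq2 and Alpl -0.80 without the shallow libraries, and without 1 library Pecam1 ranged from -0.47 to 0.47, Alpl from -0.089 to 1.09 and Itga6 from -0.075 to 0.79. None of the AICAR and day differences named here was called with all libraries.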
